A study of Mus musculus with 8 samples.

Results

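Glycolysis turns glucose into pyruvate and lactate, and most genes of the pathway are also targets of hypoxia-inducible factor (HIF), the transcription factor that is stabilised when oxygen is short. The 37 genes described here are glucose and lactate carriers, glycolytic enzymes, controllers of glycolytic flux, other known HIF targets and Hif1a, which encodes a HIF subunit. They were chosen by symbol with earlier results of these data known, so counts over the group describe it and are no independent test. All 37 were among the 21692 genes of the deposited table. For the comparison within the group, 20 were counted as glycolytic (3 carriers, 14 enzymes and 3 controllers of flux) and 17 as other HIF genes. All 37 passed the filter on low counts, which left 15517 genes.

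The RNA came from mouse forelimb buds of the outbred CD1 strain, taken on gestation day 13 and kept as explants for 24 h. The control medium held dimethyl sulfoxide (DMSO, the vehicle), and the treated medium held an organophosphate ester (OPE) mixture composed after Canadian house dust, at a dilution of 1 in 300000. Organophosphate esters are used as flame retardants and plasticisers. There were 4 libraries per group, called vehicle 1 to 4 and OPE 1 to 4, and the labels name no genetic modification in any of them. Explants hold mixed cells, so fewer cells of a type and less RNA per cell cannot be told apart in these values. Nothing in the labels says that replicates came from separate litters or cultures, so p-values measure only the spread between these samples, which may be technical.

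Counted reads per library ranged from 17549560 to 22006738 with vehicle and from 14986793 to 21806141 with OPE. Levels below are in CPM, read counts scaled to library size. Limb mesenchyme and forelimb genes such as Prrx1 and Tbx5 summed to between 1006 and 1070 CPM with vehicle and between 985 and 1111 CPM with OPE. The hindlimb genes Tbx4, Pitx1 and Isl1 together reached no more than 33.8 CPM in any library. Macrophage markers differed between the groups: 7 of 13 passed the edgeR test, all lower with OPE, where 0.438% of all genes were called lower. Their summed level was 183 to 220 CPM with vehicle and 34.9 to 94.5 CPM with OPE.

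When oxygen is plentiful, prolyl hydroxylases of the Egln family mark the HIF alpha subunits for destruction. When oxygen is short, the subunits persist, pair with Arnt and bind the short DNA core (A or G)CGTG near their targets. In the limb bud, the avascular core that becomes cartilage is known to be poor in oxygen, and Hif1a is needed there for chondrocyte survival. The control of Hif1a by oxygen acts mainly on the protein, which was not measured.

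The genes of the group were lower on average in OPE libraries than in vehicle libraries, but the range of log2 CPM among the vehicle libraries exceeded the difference between groups in 33 of 37 (89.2%), as it did in 78.9% of all genes. The log2 fold change, OPE against vehicle, was below 0 in 35 of 37 genes, where 47.2% of all genes tested were below 0. Its median was -0.61 over the 37 genes and 0.01 over all genes tested. None of the 37 passed an adjusted p of 0.05 in edgeR's quasi-likelihood test with Benjamini-Hochberg adjustment over all genes, which called 0.477% of all genes (0.438% as lower). At an unadjusted p under 0.05, 28 of the 37 were lower and 0 were higher, against 7.31% and 5.85% of all genes. The same 4 against 4 libraries gave 8 calls among the 37 in DESeq2, where 3.11% of all genes were called (2.07% as lower). In limma-voom none of the 37 was called, where 0.651% of all genes were, and with sample weights none was called, where 2.87% of all genes were.

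All 4 OPE values lay below all 4 vehicle values in 4 of the 37 genes (Hk1, Aldoc, Eno1 and Egln3), where 5.44% of all genes did so. No gene of the group had all OPE values above all vehicle values, where 4.05% of all genes did. In 31 of the 37 (83.8%) the vehicle 4 value lay between the lowest and the highest OPE value, as it did in 68.5% of all genes. The 28 genes lower at an unadjusted edgeR p under 0.05 depended on the libraries kept. Dropping a single vehicle library left 17 (vehicle 1), 18 (vehicle 2), 28 (vehicle 3) or 33 (vehicle 4). Dropping a single OPE library left 20 (OPE 1), 30 (OPE 2), 17 (OPE 3) or 18 (OPE 4). When OPE 1 and OPE 3 were both dropped, 6 remained, in a fit with fewer OPE libraries. The median log2 fold change of the group in that fit was -0.53, against -0.61 with all libraries.

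**Figure D1:**
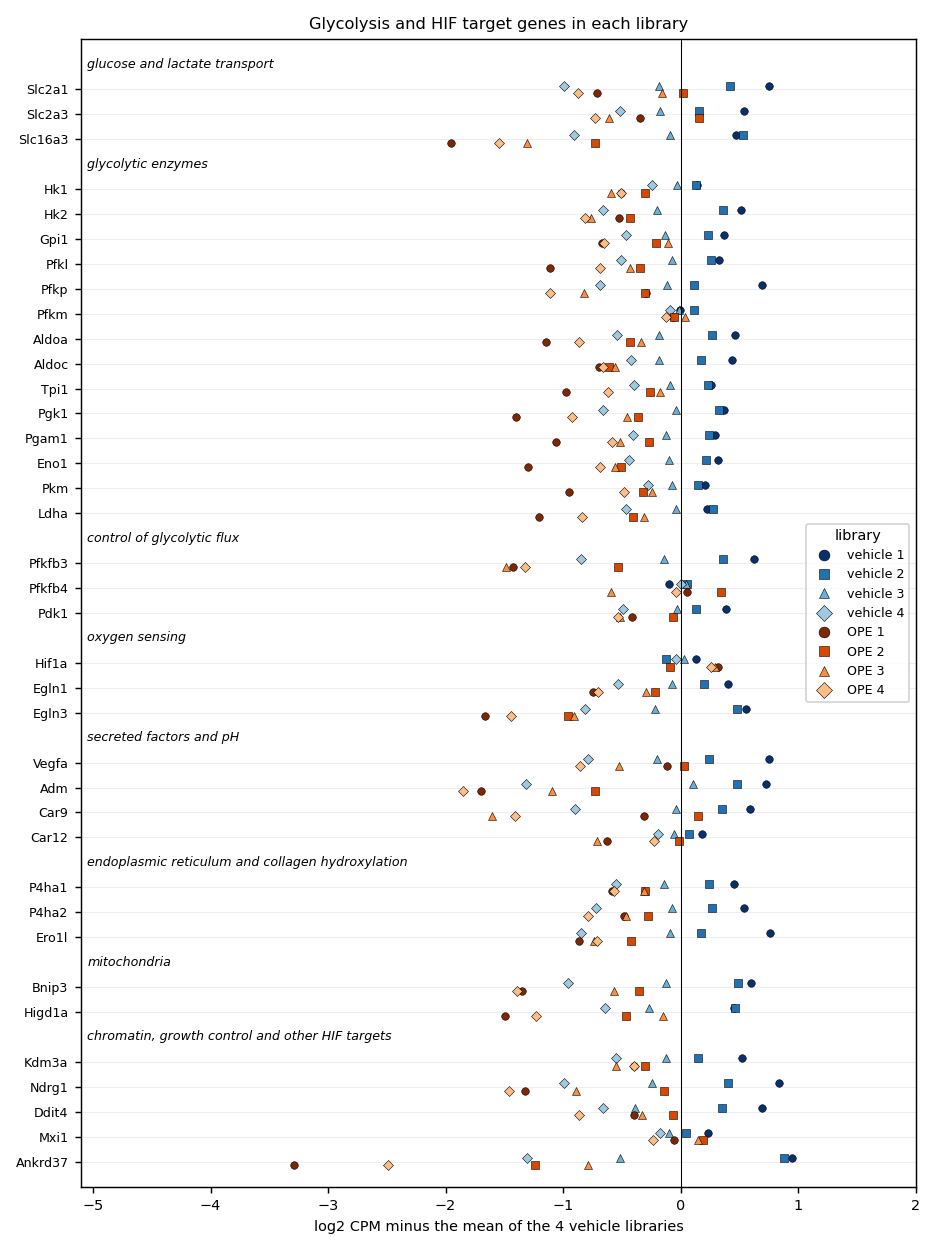
Each point is 1 library: the horizontal axis gives its log2 CPM minus the mean of the 4 vehicle libraries, and the rows are the 37 genes grouped by role, with vehicle in blue and OPE in orange. Vehicle 1 and vehicle 2 sit to the right of 0 in most rows, and vehicle 4 falls between the OPE points in 31 of 37 rows.

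The RefSeq promoter table (GRCm38.p6, the assembly also called mm10) was searched for the HIF core in windows of 300 bases, 250 before the start and 50 after it. Of the 37 genes 35 had a window, Ero1l under its newer symbol Ero1a; Slc2a3 and Ndrg1 were not matched. ACGTG or GCGTG, on either strand, occurred in 27 of the 35 windows (77.1%), and in 62.4% of the windows of 10616 protein-coding genes tested. Where a gene had several windows, the group's was the one closest to the deposited start. The background's was the first listed, so the shares rest on unlike choices of window. The motif came up at least 2 times in 62.9% of the group's windows and in 33.5% of that background, where a palindromic CACGTG counts as 2 overlapping matches. The share with a match was 73.7% for glycolytic genes (14 of 19) and 81.25% for other HIF genes (13 of 16). G and C made up a median of 64.7% of the group's windows and 61% of the background's. Of all 32851 windows of the table, genes outside the 15517 included, 43.8% held the core.

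The 250 bases before the RefSeq start are shown for the 4 genes with the largest difference between groups. They are also shown for Pfkfb4 and Mxi1, whose 2 groups had nearly equal means. Each is written 5′ to 3′ on the strand of its gene, with core matches of either strand in capitals (CACGT and CACGC are the reverse complements of the core). A match is a description of these letters and no measured binding.
Ankrd37, chr8:45999851-46000100, minus strand: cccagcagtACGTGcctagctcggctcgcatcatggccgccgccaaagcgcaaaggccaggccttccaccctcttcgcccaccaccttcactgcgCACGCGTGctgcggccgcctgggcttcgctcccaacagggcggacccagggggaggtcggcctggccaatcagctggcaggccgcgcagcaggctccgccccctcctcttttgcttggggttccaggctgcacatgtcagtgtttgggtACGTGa
Adm, chr7:110627407-110627656, plus strand: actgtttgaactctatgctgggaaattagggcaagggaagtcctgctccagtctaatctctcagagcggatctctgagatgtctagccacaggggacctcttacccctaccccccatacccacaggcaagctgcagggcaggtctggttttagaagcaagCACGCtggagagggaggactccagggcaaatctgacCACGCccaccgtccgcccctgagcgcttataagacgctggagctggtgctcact
Slc16a3, chr11:120948817-120949066, plus strand: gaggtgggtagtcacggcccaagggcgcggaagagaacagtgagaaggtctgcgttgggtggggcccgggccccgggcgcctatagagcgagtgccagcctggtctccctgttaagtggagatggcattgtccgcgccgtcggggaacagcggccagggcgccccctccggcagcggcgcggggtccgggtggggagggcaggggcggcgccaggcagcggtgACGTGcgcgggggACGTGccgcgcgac
Egln3, chr12:54203875-54204124, minus strand: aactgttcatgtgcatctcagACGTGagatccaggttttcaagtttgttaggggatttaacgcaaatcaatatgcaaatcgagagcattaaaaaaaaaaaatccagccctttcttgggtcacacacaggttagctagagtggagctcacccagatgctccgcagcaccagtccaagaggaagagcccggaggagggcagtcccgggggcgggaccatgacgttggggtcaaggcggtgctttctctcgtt
Pfkfb4, chr9:108991652-108991901, plus strand: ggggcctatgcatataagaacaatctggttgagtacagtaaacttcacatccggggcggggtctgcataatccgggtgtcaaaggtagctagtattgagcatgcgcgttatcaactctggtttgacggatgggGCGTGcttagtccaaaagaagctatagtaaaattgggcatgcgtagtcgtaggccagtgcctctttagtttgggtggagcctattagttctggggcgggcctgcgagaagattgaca
Mxi1, chr19:53310256-53310505, plus strand: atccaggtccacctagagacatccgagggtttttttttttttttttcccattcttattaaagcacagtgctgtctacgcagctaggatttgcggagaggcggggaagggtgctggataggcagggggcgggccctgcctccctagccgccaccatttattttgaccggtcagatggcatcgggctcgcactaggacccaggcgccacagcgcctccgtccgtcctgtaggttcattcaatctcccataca
The Ankrd37 stretch held 4 matches, a pair of them overlapping on opposite strands, and those of Adm and Slc16a3 held 2 each. The Slc16a3 stretch lies inside the gene as deposited, because its RefSeq start is 587 bases downstream of the deposited start. Egln3 and Pfkfb4 each had 1 match, although the first was among the largest differences and the second among the smallest. Mxi1 had none in this window, while 2 of its 3 RefSeq windows held the core. Hk1, which had the smallest edgeR p of the glycolytic genes and is not shown, also had none in its window. For Hk1, 1 of its 2 RefSeq windows held the core.

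Carriers bring glucose in and lactate out. Slc16a3, which encodes the lactate exporter MCT4 and lies on chromosome 11 (120948480 to 120960868, plus strand, mm10), had 88.98, 93.02, 60.3 and 34.3 CPM in vehicle 1 to 4. In OPE 1 to 4 it had 16.5, 38.7, 25.99 and 21.96 CPM. Only OPE 2 reached above the lowest vehicle library, vehicle 4. The difference came to a log2 fold change of -1.43 ± 0.32 (SE), the largest of the glycolytic genes (edgeR adjusted p = 0.0790).

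Slc2a1 encodes the widespread glucose carrier GLUT1. It measured 213, 169, 111 and 63.6 CPM in vehicle 1 to 4, and 77.3, 128, 113 and 68.8 CPM in OPE 1 to 4. The vehicle libraries spanned more than the OPE libraries here, and OPE 2 and OPE 3 lay above vehicle 3 and vehicle 4. The fold change of -0.53 ± 0.32 (log2, SE) came with an interval of -1.23 to 0.18 at 95%. Slc2a3, which encodes the high-affinity carrier GLUT3, had 123, 94.5, 74.9 and 59.2 CPM with vehicle and 66.6, 94.6, 55.4 and 51.05 CPM with OPE. OPE 2 was level with vehicle 2, and the log2 fold change was -0.39 ± 0.23. GLUT3 transcripts made up 18.9% to 27.9% of the summed FPKM of both carriers with vehicle and 16.98% to 26.4% with OPE. Neither glucose carrier had an unadjusted p under 0.05.

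Hexokinases trap glucose in the cell by phosphorylating it. Hk1, on chromosome 10 (62268855 to 62379908, minus strand, mm10), had 138, 137, 122 and 105 CPM with vehicle and 87.97, 101, 82.6 and 87.7 CPM with OPE. The groups did not overlap, and both were tight (SD 15.1 and 7.82 CPM, n = 4 each). Hk1 had a log2 fold change of -0.48 ± 0.11, with an edgeR adjusted p of 0.0786. Hk1 passed 0.05 when OPE 3 was left out (adjusted p = 0.0378), and its adjusted p ranged from 0.00581 to 0.243 over all alternatives.

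Hk2, the hexokinase that hypoxia induces most clearly, had 86.2, 77.4, 52.5 and 38.1 CPM with vehicle and 41.9, 44.9, 35.6 and 34.3 CPM with OPE. Vehicle 4 lay within the OPE values, and vehicle 1 was 2.26 times vehicle 4. Per length, in fragments scaled to gene length and library size (FPKM), Hk2 made up 32.7, 30.5, 25.01 and 21.9% of Hk1 and Hk2 together in vehicle 1 to 4. With OPE the share was 26.97, 25.7, 25.04 and 23.3%, inside the vehicle range.

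Phosphofructokinase is the committed step of glycolysis, and it has 3 isoforms. Pfkl, the liver type, had 205, 196, 156 and 115 CPM with vehicle and 75.6, 129, 121 and 101 CPM with OPE. Pfkm, the muscle type, had 116, 126, 115 and 109.9 CPM with vehicle and 111, 112, 119.97 and 107 CPM with OPE, the flattest profile of the glycolytic enzymes. Pfkp, the platelet type, was the least abundant of them per length (5.70 FPKM with vehicle), at 39.9, 26.7, 22.8 and 15.3 CPM with vehicle and 20.1, 20.03, 13.9 and 11.4 CPM with OPE.

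On the log2 scale the fold changes of these isoforms were -0.65 ± 0.20 for Pfkl, -0.67 ± 0.27 for Pfkp and -0.05 ± 0.08 for Pfkm. The 95% interval for Pfkm was -0.23 to 0.12, which does not reach the median of the glycolytic genes. Pfkm held 38.9, 42.99, 46.2 and 52.8% of the summed FPKM of the 3 isoforms in vehicle 1 to 4. Its share was 61.2, 50.2, 53.99 and 55.6% in OPE 1 to 4. The highest shares were those of OPE 1 and OPE 4, and vehicle 4 lay between OPE 2 and OPE 3. The strand setting of the counting is not given, and Pfkm and Pfkp overlap Senp1 and Pitrm1 on the opposite strand, which had 61.5% and 446% as many reads. Their values are therefore uncertain.

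Aldolase splits the hexose into trioses. Aldoa was the most abundant gene of the group per length, with a vehicle mean of 442 FPKM, and it had 894, 781, 573 and 446 CPM with vehicle and 294, 483, 515 and 356 CPM with OPE. Aldoc, the brain type, had 12.7, 10.5, 8.19 and 6.92 CPM with vehicle and 5.72, 6.08, 6.31 and 5.86 CPM with OPE. Aldoc was one of the genes without overlap, and its OPE libraries all lay between 5.72 and 6.31 CPM. The log2 fold changes were -0.71 ± 0.23 for Aldoa and -0.68 ± 0.19 for Aldoc (edgeR adjusted p = 0.207 and 0.156).

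Eno1 encodes alpha-enolase and lies on chromosome 4 (150236721 to 150248879, plus strand, mm10). It had 602, 560.3, 449 and 356 CPM in vehicle 1 to 4 and 196, 339, 328 and 299 CPM in OPE 1 to 4. All OPE values were lower than all vehicle values, by a narrow margin between vehicle 4 and OPE 2. This gave a log2 fold change of -0.76 ± 0.20 (edgeR adjusted p = 0.119). A near-identical copy, Eno1b, held 12066 reads beside the 57893 of Eno1, and the counting could have split reads between them.

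Ldha makes lactate from pyruvate. It had 517, 535, 429.6 and 319.7 CPM with vehicle and 191, 333, 355 and 247 CPM with OPE, and its log2 fold change was -0.68 ± 0.21 (edgeR adjusted p = 0.184). OPE 2 and OPE 3 lay above vehicle 4. Against Ldhb, the isoform that is no known HIF target, Ldha held 76.9, 76.9, 72.2 and 65.7% of their summed FPKM with vehicle and 56.8, 67.6, 61.6 and 61.05% with OPE. The values of Ldhb were 115, 119, 122 and 123 CPM with vehicle and 107, 118, 163 and 116 CPM with OPE, level but for OPE 3. Ldhb itself had a log2 fold change of 0.08 ± 0.12.

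The remaining enzymes gave log2 fold changes between -0.79 for Pgk1, the first ATP-making step, and -0.42 for Gpi1, the isomerase after hexokinase. Pgk1 had 405, 393, 305 and 198 CPM with vehicle and 119, 243, 228 and 165 CPM with OPE. Pgam1, Pkm and Tpi1, which encode phosphoglycerate mutase, pyruvate kinase and triosephosphate isomerase, had -0.61 ± 0.18, -0.49 ± 0.16 and -0.50 ± 0.19. Pkm, the most abundant after Aldoa per length, ranged from 657 to 919 CPM with vehicle and from 412 to 673 CPM with OPE. Tpi1 ranged from 265 to 418 CPM and 177 to 309 CPM, Pgam1 from 93.3 to 151 CPM and 59.2 to 103 CPM, and Gpi1 from 247 to 439 CPM and 213 to 315 CPM in the same order. The ranges of the groups overlapped in all 5. In each of these 5 genes vehicle 4 was the lowest vehicle library and OPE 1 the lowest OPE library. Over the 14 enzymes the median of OPE 1 was -0.97 against the vehicle mean, and that of vehicle 4 was -0.45.

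Pfkfb3 and Pfkfb4 make and remove the fructose bisphosphate that activates phosphofructokinase. Pfkfb3, on chromosome 2 (11471430 to 11502101, minus strand, mm10), had 79.3, 65.8, 46.6 and 28.6 CPM with vehicle and 18.996, 35.4, 18.3 and 20.4 CPM with OPE. OPE 2 stood well above the other OPE libraries and above vehicle 4. Pfkfb3 had a log2 fold change of -1.24 ± 0.30 (edgeR adjusted p = 0.101).

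Pfkfb4 had 16.3, 18.2, 18.1 and 17.6 CPM with vehicle and 18.2, 22.2, 11.6 and 17.04 CPM with OPE. The vehicle libraries were nearly level, and the OPE libraries lay on both sides of them. Its log2 fold change was -0.02 ± 0.17, with a 95% interval of -0.40 to 0.35, and turned positive without OPE 3. Pfkfb3 held 75.99, 70.2, 62.7 and 51.4% of the FPKM of the pair with vehicle. It held 40.5, 50.9, 50.7 and 43.8% with OPE, so that the groups did not overlap, although vehicle 4 and OPE 2 were within 1 percentage point. Pdk1, a kinase that holds pyruvate dehydrogenase inactive, had 131, 109, 97.7 and 70.99 CPM with vehicle and 75.1, 95.2, 69.9 and 68.9 CPM with OPE. Vehicle 4 lay among the OPE libraries, and the log2 fold change was -0.40 ± 0.17.

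**Figure D2:**
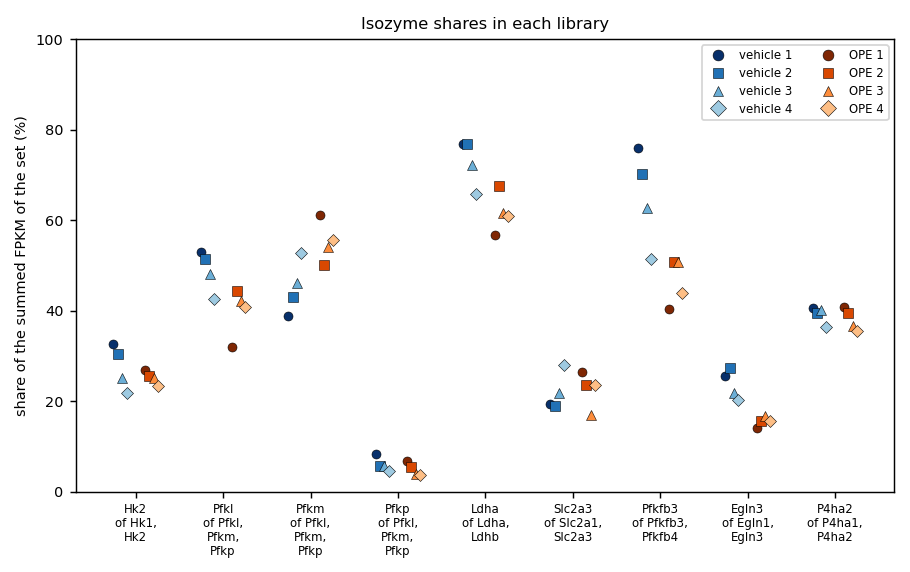
The vertical axis gives the share of the summed FPKM of a set of related enzymes held by the gene named first, for each of the 8 libraries. All OPE points lie below all vehicle points for Pfkfb3 (mean 65.1% with vehicle, 46.5% with OPE) and Egln3 (23.7% and 15.5%), and the groups overlap in the other sets shown.

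Hif1a encodes the oxygen-regulated alpha subunit and lies on chromosome 12 (73901375 to 73947530, plus strand, mm10). Its mRNA had 177, 149, 166 and 158 CPM with vehicle and 202, 152, 199 and 194 CPM with OPE. OPE 1, OPE 3 and OPE 4 were above every vehicle library, and OPE 2 was above vehicle 2 only. For Hif1a the log2 fold change was 0.20 ± 0.11 with an edgeR adjusted p of 0.459 and a 95% interval of -0.03 to 0.44. It was the only gene of the group with a log2 fold change above 0.05.

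Egln3 encodes a HIF prolyl hydroxylase that HIF itself induces, and it lies on chromosome 12 (54178981 to 54203860, minus strand, mm10). It had 38.9, 37.04, 22.7 and 15.03 CPM in vehicle 1 to 4, and 8.30, 13.6, 14.1 and 9.65 CPM in OPE 1 to 4. Every OPE library was lower than every vehicle library, but the vehicle values spanned 2.59-fold and vehicle 4 came close to OPE 3. Its log2 fold change of -1.32 ± 0.29 had the smallest edgeR adjusted p of the group, 0.0741.

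Egln1 encodes the main oxygen sensor of the family. It had 150.0, 130.1, 107 and 78.3 CPM with vehicle and 67.3, 97.2, 92.04 and 69.3 CPM with OPE, a log2 fold change of -0.52 ± 0.19. Of the summed FPKM of both hydroxylases, Egln3 held 25.5, 27.3, 21.8 and 20.2% in vehicle 1 to 4. With OPE it held 14, 15.5, 16.8 and 15.5%. These shares did not overlap, and their OPE values were closer together than their vehicle values.

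Adm encodes the secreted vasodilator adrenomedullin and lies on chromosome 7 (110627661 to 110629820, plus strand, mm10). It had 6.88, 5.81, 4.44 and 1.60 CPM with vehicle and 1.20, 2.45, 1.87 and 1.06 CPM with OPE. The values rest on 16 to 122 reads per library, and vehicle 4 lay among the OPE libraries. Adm thus had a log2 fold change of -1.51 ± 0.42 (edgeR adjusted p = 0.153). Vegfa, the main vascular growth factor, had 364, 256, 188 and 125 CPM with vehicle and 199, 221, 151 and 119 CPM with OPE. Vehicle 1 was the highest library and OPE 4 the lowest, just under vehicle 4. The log2 fold change of Vegfa was -0.44 ± 0.29 with a 95% interval of -1.07 to 0.20.

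Carbonic anhydrases Car9 and Car12 buffer the acid that glycolysis makes. Car9 was the least abundant gene of the group per length (2.96 FPKM with vehicle) and had 8.29, 7.03, 5.33 and 2.88 CPM with vehicle and 4.38, 6.08, 1.73 and 1.997 CPM with OPE. OPE 2 exceeded vehicle 3 and vehicle 4, and OPE 3 was the lowest. Car12 had 49.9, 46.2, 42.4 and 38.5 CPM with vehicle and 28.4, 43.5, 26.8 and 37.7 CPM with OPE, where OPE 1 and OPE 3 were lowest. Car12 gave a log2 fold change of -0.38 ± 0.16 and Car9 one of -0.71 ± 0.41. Car9 overlaps an antisense gene with 41.4% as many reads, so that its values are uncertain.

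P4ha1 and P4ha2 encode prolyl hydroxylase subunits that stabilise collagen. P4ha1 had 303, 263, 201 and 152 CPM with vehicle and 148, 179.8, 179 and 149.9 CPM with OPE. P4ha2 had 156, 129.5, 103 and 65.4 CPM with vehicle and 77.3, 89.1, 78.4 and 62.6 CPM with OPE. In both genes vehicle 4 lay within the OPE range, and the log2 fold changes were -0.48 ± 0.18 and -0.56 ± 0.22. P4ha2 held between 36.3% and 40.5% of their summed FPKM with vehicle and between 35.5% and 40.8% with OPE. These shares covered nearly the same range in both groups. Ero1l, which encodes an oxidase for protein folding, had 115, 76.4, 63.6 and 37.6 CPM with vehicle and 37.1, 50.4, 40.7 and 41.2 CPM with OPE. Vehicle 1 was 3.05 times vehicle 4, and vehicle 4 lay within the OPE range. Ero1l had a log2 fold change of -0.79 ± 0.26 (edgeR adjusted p = 0.220).

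Bnip3, which marks mitochondria for removal, had 131, 121, 79.1 and 44.5 CPM with vehicle and 33.8, 67.4, 58.5 and 32.9 CPM with OPE. OPE 1 and OPE 4 were the lowest and vehicle 4 came next. Higd1a, a small mitochondrial protein, had 72.3, 72.8, 43.9 and 33.8 CPM with vehicle and 18.7, 38.3, 47.5 and 22.4 CPM with OPE, with OPE 1 and OPE 4 again the lowest. In log2, the fold change was -0.97 ± 0.33 for Bnip3 and -0.82 ± 0.32 for Higd1a. Their edgeR adjusted p values were 0.228 and 0.294.

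Ankrd37, which encodes an ankyrin repeat protein and lies on chromosome 8 (45996902 to 45999867, minus strand, mm10), had the largest difference of the group. It had 9.76, 9.27, 3.46 and 1.95 CPM with vehicle and 0.415, 2.05, 2.84 and 0.799 CPM with OPE, from 9 to 182 reads per library. Vehicle 1 was 5 times vehicle 4, and both OPE 2 and OPE 3 lay above vehicle 4. Its log2 fold change was -2.04 ± 0.61 with a 95% interval of -3.38 to -0.69 (edgeR adjusted p = 0.176). Ankrd37 overlaps Ufsp2 on the opposite strand, which had 811% as many reads, so that its values are uncertain.

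Mxi1, a Myc antagonist and known HIF target, lies on chromosome 19 (53310506 to 53375810, plus strand, mm10). It had 75.3, 66.3, 59.9 and 56.8 CPM with vehicle and 61.8, 73.4, 70.97 and 54.6 CPM with OPE. The groups covered nearly the same range. Its log2 fold change was 0.01 ± 0.12 with a 95% interval of -0.25 to 0.28, and its sign changed to -0.04 when libraries were scaled by their totals only. Ndrg1, a stress-responsive gene, the histone demethylase gene Kdm3a and Ddit4, which encodes an inhibitor of mTOR complex signalling, had -1.02 ± 0.38, -0.46 ± 0.18 and -0.49 ± 0.27. Ndrg1 had 77.5, 57.4, 36.5 and 21.8 CPM with vehicle and 17.2, 39.4, 23.3 and 15.7 CPM with OPE. Kdm3a ranged from 67.8 to 142 CPM with vehicle and from 67.8 to 80.3 CPM with OPE, and Ddit4 from 102 to 260.1 CPM and 88.4 to 154 CPM. In Ndrg1 and Ddit4 the vehicle 4 value lay inside the OPE range, and in Kdm3a it lay just below it.

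**Figure D3:**
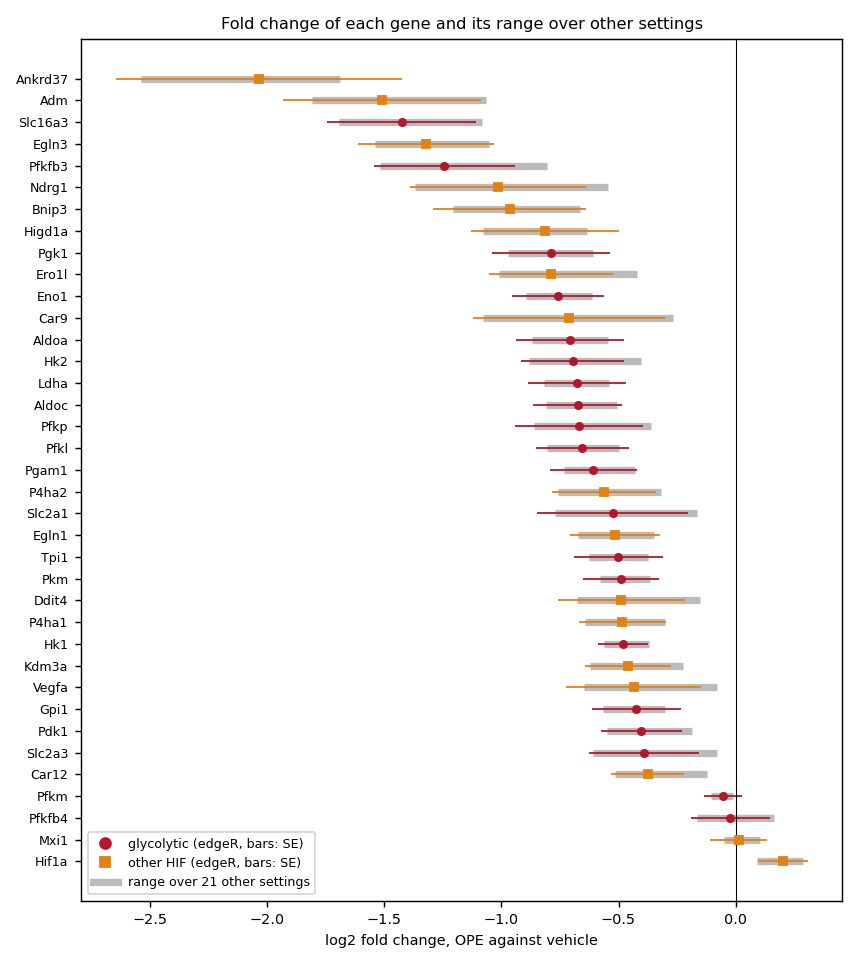
Points give the log2 fold change, OPE against vehicle, of each of the 37 genes with bars of 1 standard error from the edgeR fit, glycolytic and other HIF genes in separate colours, and grey bars the range over 21 alternative settings. Of these, 35 lie below 0, Hif1a (0.20) and Mxi1 (0.01) lie above it, and none passes an adjusted p of 0.05.

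Glycolytic genes and other HIF genes differed little in their group difference. The median log2 fold change was -0.63 over the 20 glycolytic genes and -0.56 over the 17 others. All 20 glycolytic genes and 15 of the 17 others were below 0, where 47.2% of all genes tested were. At an unadjusted p under 0.05, 16 and 12 were lower, where 7.31% of all genes were. All OPE values lay below all vehicle values in 3 glycolytic genes and in 1 other HIF gene, against 5.44% of all genes. Members of each set share libraries and vary together, so these counts describe the sets and are no test between them.

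The sets differed more in how far the vehicle libraries lay apart. The median SD of log2 CPM over the 4 vehicle libraries was 0.38 for glycolytic genes, 0.63 for other HIF genes and 0.14 for all genes tested. Per library, the glycolytic median was 0.37, 0.23, -0.10 and -0.48 (log2, against the vehicle mean) in vehicle 1 to 4. The corresponding median of the other HIF genes was 0.55, 0.26, -0.12 and -0.72. The vehicle libraries held the same order in both sets, with a wider span in the other HIF genes.

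With OPE, the glycolytic median was -0.83, -0.31, -0.51 and -0.69 in OPE 1 to 4, and that of the other HIF genes was -0.63, -0.28, -0.55 and -0.86. OPE 1 was the lowest library for glycolytic genes and OPE 4 for other HIF genes. OPE 2 was the highest for both. The glycolytic median minus the other median was -0.18 in vehicle 1, 0.24 in vehicle 4, -0.20 in OPE 1 and 0.17 in OPE 4, so that each group held libraries of either sign.

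**Figure D4:**
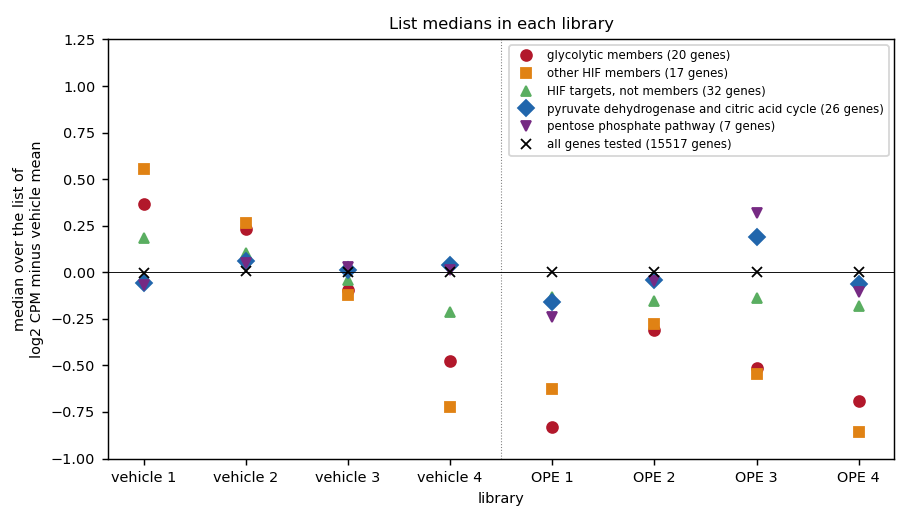
The vertical axis gives the median log2 CPM of a gene set minus its vehicle mean, and the horizontal axis the 8 libraries. Both the glycolytic and the other HIF genes lie above 0 in vehicle 1 and vehicle 2 and below 0 in vehicle 3 and vehicle 4, whose other HIF median (-0.72) lies within the range of the OPE libraries.

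The vehicle libraries ordered the group's genes in nearly one way. Vehicle 1 was the highest vehicle library in 32 of 37 genes and vehicle 2 in the other 5, while vehicle 4 was the lowest in 35. Over all genes tested, vehicle 1 was highest in 32.5% and vehicle 4 lowest in 20.2%. Vehicle 1 and vehicle 2 both lay above vehicle 3, and vehicle 3 above vehicle 4, in 35 of 37 genes (94.6%), against 7.69% of all genes. That order was chosen for counting after the values had been seen. The exceptions were Pfkfb4 and Hif1a.

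The vehicle values of a gene spanned from 1.12-fold to 5-fold (median 2.04-fold). The vehicle SD was larger than the OPE SD in 25 of 37 genes (67.6%), where this held for 20.9% of all genes. Its median over the group was 0.45 against 0.14 for all genes, and 22 of the 37 genes were in the highest decile of all genes by vehicle SD. The OPE libraries had a median SD of 0.36, against 0.25 for all genes.

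**Figure D5:**
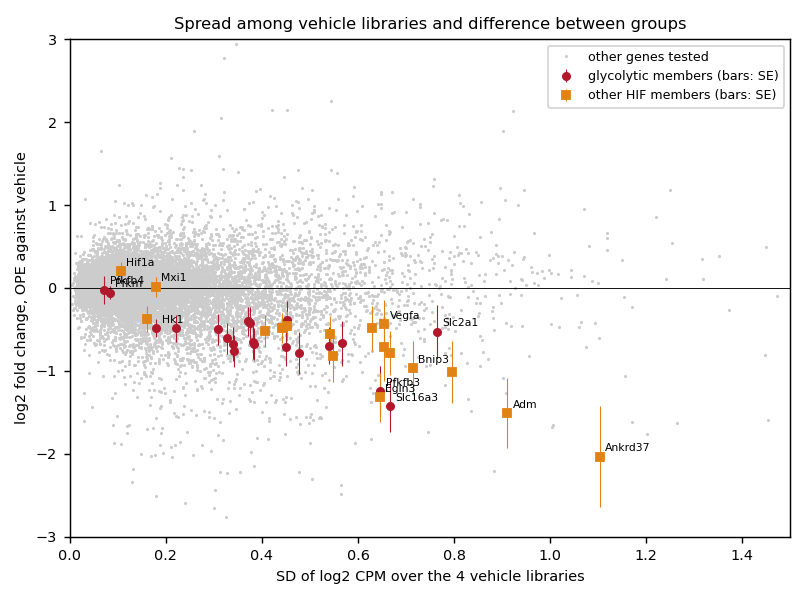
The horizontal axis gives the SD of log2 CPM over the 4 vehicle libraries and the vertical axis the log2 fold change, OPE against vehicle, with all genes tested in grey and the 37 genes in colour. Of the 37, 34 have a vehicle SD above the median of all genes and 35 lie below 0, while Pfkm, Pfkfb4, Hif1a and Mxi1 lie close to the bulk.

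In sum of reads, the 37 genes took 0.781%, 0.713%, 0.558% and 0.435% of all counted reads in vehicle 1 to 4. They took 0.336%, 0.489%, 0.434% and 0.375% in OPE 1 to 4. OPE 2 was above vehicle 4, and OPE 3 was level with it. The mean share was 0.622 ± 0.155% with vehicle and 0.408 ± 0.0668% with OPE (SD, n = 4 each).

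Total reads were lowest in vehicle 1 (17549560) and highest in vehicle 4 (22006738) of the vehicle libraries, the reverse of the group's levels. Depth was not lower throughout with OPE, where OPE 1 had 21806141 reads and the other 3 libraries had 14986793 to 15520091. Levels also tilted with gene length in 1 library: the slope of log2 CPM on log2 gene length was -0.24 in OPE 3, while the other 7 libraries had slopes from -0.06 to 0.07. The part of depth and length in the order of the libraries was not tested, except that removing the length trend gave a median log2 fold change of -0.59 over the 37 genes, with Hk1 then called.

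Other genes of the same pathways were counted from lists. Of 16 further glycolysis genes tested, 0 passed the adjusted p in edgeR, where 0.438% of all genes were called lower. At an unadjusted p under 0.05, 5 were lower and 1 was higher, against 7.31% and 5.85% of all genes. Gapdh, the glyceraldehyde phosphate step, had a log2 fold change of -0.43 ± 0.18, Eno3, the muscle enolase, -0.45 ± 0.12, and Pgm2, a phosphoglucomutase, -0.53 ± 0.16. The 1 higher gene was Slc2a4, the insulin-responsive glucose carrier GLUT4, at 0.43 ± 0.14 (edgeR adjusted p = 0.195). The median of the 16 was -0.07.

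Of 32 HIF targets outside the group, 0 passed the adjusted p in edgeR, where 0.438% of all genes were called lower. At an unadjusted p under 0.05, 11 were lower and 1 was higher, against 7.31% and 5.85% of all genes. The median log2 fold change of the 32 was -0.24. Stc1, which encodes the hormone stanniocalcin, had 29.7, 25.01, 25.5 and 20.5 CPM with vehicle and 10.2, 16.1, 11.4 and 17.97 CPM with OPE. Its groups did not overlap, and its log2 fold change was -0.86 ± 0.19 (edgeR adjusted p = 0.0730). Ppp1r3c, a glycogen-targeting subunit, Plod1, a collagen lysyl hydroxylase, and Narf had -0.59 ± 0.15, -0.38 ± 0.11 and -0.45 ± 0.13. The vehicle order described above held in 18 of these 32 genes (56.25%). Their per-library medians were 0.18, 0.10, -0.04 and -0.21 in vehicle 1 to 4 and between -0.18 and -0.13 in the OPE libraries.

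Among 12 HIF subunits and oxygen-sensing genes, 1 had an unadjusted edgeR p under 0.05, where 13.2% of all genes did. This was Epas1, which encodes HIF-2 alpha and is abundant in endothelium. It had 24.5, 22.98, 21.1 and 22.97 CPM with vehicle and 12.2, 17.5, 12.6 and 16.8 CPM with OPE, without overlap, and a log2 fold change of -0.63 ± 0.14 (edgeR adjusted p = 0.0759). Markers of endothelium also differed: their summed level was 287 to 352 CPM with vehicle and 137 to 255 CPM with OPE. Of these markers 9 of 10 had a log2 fold change below 0, where 47.2% of all genes did. The exception was Emcn (0.34 ± 0.16). In edgeR 1 of the 10 was called lower, where 0.438% of all genes were, and none was at 0 in any library. Within vehicle, the endothelium sums were 352, 318, 296 and 287 CPM in vehicle 1 to 4, and 6 of 10 markers (60%) had the order seen in the group, with vehicle 1 and vehicle 2 above vehicle 3 and vehicle 3 above vehicle 4, as 7.69% of all genes did. Their part in the values of Epas1 and of the group was not tested.

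Neighbouring pathways had medians close to that of all genes. Over 26 genes of pyruvate entry and the citric acid cycle the median log2 fold change was 0.01, and Dlat, a subunit of pyruvate dehydrogenase, was the only one with an unadjusted p under 0.05 (-0.19 ± 0.08). Over 7 genes of the pentose phosphate pathway the median was 0.08. There the only gene with an unadjusted p under 0.05 was Rpia, ribose phosphate isomerase, higher at 0.32 ± 0.12. Over all genes, 13.2% had an unadjusted edgeR p under 0.05. The vehicle order held in 2 of the 26 and in 0 of the 7. Mitochondrially encoded genes took 1.62 ± 0.21% of counted reads with vehicle and 1.68 ± 0.20% with OPE (SD, n = 4 each).

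Of the other marker sets, the sums of macrophage, hypertrophic cartilage and stress response genes differed between the groups without overlap. The sums of cartilage, erythroid, skeletal muscle, epidermis and Schwann cell markers overlapped, and 0 of these markers were called in edgeR. Macrophage markers (13 of 13 below 0, against 47.2% of all genes) were given above, and none of them was at 0 in any library. Of 9 hypertrophic cartilage markers 3 passed the edgeR test as lower, where 0.438% of all genes did. The 9 summed to 631 to 823 CPM with vehicle and 445 to 550 CPM with OPE. Cartilage markers, of which 0 of 14 passed, summed to 11513 to 13550 CPM with vehicle and 11317 to 12555 CPM with OPE. All 10 integrated stress response genes, which mark no cell type, were higher at an unadjusted edgeR p under 0.05 (0 passed the adjusted p). Over all genes, 5.85% were higher at that unadjusted threshold. The list was included because an earlier analysis had found it higher with OPE, so this count is no independent result. Its sums were 669 to 794 CPM with vehicle and 998 to 1871 CPM with OPE, the highest in OPE 1. Within vehicle, macrophage sums were 207, 220, 183 and 200 CPM in vehicle 1 to 4, and 2 of 13 markers had the order seen in the group. The part of these cell types and of the stress response in the group's values was not tested.

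The authors' deposited table, whose fold changes and adjusted p-values were made by the authors, called 8 of the 37 genes lower and 0 higher at 0.05, where it called 1.8% of 17759 genes lower. In the authors' deposited table the smallest adjusted p was that of Egln3 (0.000646, log2 fold change -0.82), followed by Pfkfb3 (0.00272, -0.75) and Hk1 (0.00609, -0.43). In the same table Eno1, Adm, Slc16a3, Aldoc and Ldha had adjusted p-values from 0.0114 to 0.0499. These were the 8 genes called by DESeq2 from the deposited counts, with all 8 shared. For Egln3, Pfkfb3 and Hk1 that DESeq2 run gave log2 fold changes of -1.32, -1.24 and -0.48, larger in size than the authors' values. The reason for the smaller deposited fold changes was not tested. Glycolytic genes made up 6 of the 8, and Egln3 and Adm were the other HIF genes.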

How the data were processed

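Poly-A RNA of 8 limb bud libraries was sequenced. Per the submitters' processing notes, STAR 2.5, HTSeq 0.6.1, CASAVA 1.8 and DESeq2 (listed as version 2) served with the mm10 build. The step each served, the annotation and the strand setting were not given in the sources used here. Per the file headers, the authors deposited read counts, size-factor scaled counts (a signal), FPKM values, log2 fold changes and p-values (3933 adjusted p-values are NA). The deposited counts entered edgeR 4.0.16 under R 4.3.3 (TMM, filterByExpr, robust quasi-likelihood fit, two-sided, group only), with Benjamini-Hochberg adjustment over 15517 genes. SE is the log2 fold change over the root of F. CPM uses TMM-scaled totals, and log2 CPM adds a prior count of 2. Isozyme shares used the deposited FPKM, which equal counts per length and total within 0.9999 to 1 of the recomputed value.

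The genes and lists were chosen with earlier results of these data known. Values in every library are given for the genes of smallest p in each set and role, the 2 of largest p in each set, Hif1a and the isozyme sets; outside the group, up to 4 genes per list are named. Replicate numbers were not used to pair the libraries in the main fit, because the labels do not say what they share. On simulated data with 15345 genes, 46% of genes changed 1.5-fold, 81% changed 2-fold and 100% changed 4-fold were called, and 12 of 166 calls were unchanged genes. These rates were not worked out for genes as variable as the group, whose median vehicle SD was 0.45 against 0.14 for all genes. They therefore do not show that an uncalled gene of the group was unchanged. Alternatives were DESeq2 1.42.0, limma-voom 3.58.1, other scaling and filters, gene-length offsets, a replicate block and left-out libraries. No pair of libraries agreed within sampling noise (smallest chi-square over its degrees of freedom: 5.10).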

Additional observations from a re-analysis of the deposited data

Results flagged for a closer look

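Among 98 groups of 4 values checked for a library far from the others, 1 stood out, and chance alone gives about 1 in 20. Pfkfb3, which makes the activator of phosphofructokinase, had 35.4 CPM in OPE 2, while the other OPE libraries had between 18.3 and 20.4 CPM. The gap from OPE 2 to its nearest neighbour was 0.875 of the range of the 4 OPE libraries, above Dixon's 95% critical value. OPE 2 was the highest OPE library in 25 of the 37 genes.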

How the results depend on the processing

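The median log2 fold change stayed below 0 in each of 22 alternatives: -0.66 to -0.40 over the 37 genes, -0.68 to -0.41 over the glycolytic genes and -0.61 to -0.32 over the other HIF genes, and -0.77 to -0.44, -0.79 to -0.48 and -0.76 to -0.38 when 1 library was left out. An alternative chosen after seeing the data, without the 5 genes that overlap another gene or have a copy (Pfkp, Pfkm, Ankrd37, Car9 and Eno1), gave -0.54, -0.61 and -0.52. The number of the 37 genes called was 0, but 8 with DESeq2, 1 (Hk1) with the gene-length trend removed, and 0 to 1 with a library left out. The number lower at an unadjusted p under 0.05 was 28, but 15 with limma-voom sample weights, 6 without both OPE 1 and OPE 3, and 17 to 33 with 1 library left out. Over all genes, 74 were called, 131 with library totals only, 136 without a filter, 504 with DESeq2, 445 with sample weights, 321 with the length trend removed (170 lower and 151 higher, against 68 and 6), and 7 to 308 with a library left out. The log2 fold change of Mxi1 (0.01) was -0.039 with library totals, -0.014 with upper quartile scaling and -0.011 without both OPE 1 and OPE 3, and -0.051 to 0.090 with 1 library left out. That of Pfkfb4 (-0.02) was 0.11 with sample weights, 0.028 with the length trend removed, 0.16 without both OPE 1 and OPE 3, and -0.16 to 0.12 with 1 library left out. Beyond their construction, the cause of these differences was not tested.

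The replicate numbers share nothing in the labels beyond the number. Same-numbered libraries had correlations of 0.31, 0.08, 0.01 and 0.09 in their deviations from the group means, not all above 0.1. Other pairs had -0.34 to 0.36. So few values cannot show whether same-numbered libraries shared a day or litter. With the replicate block, 62 genes and 0 of the 37 were called. At an unadjusted p under 0.05 in that edgeR fit, 32 of the 37 were lower, against 28 without the block. With the block and the length trend removed, 257 genes and 3 of the 37 (Hk1, Pfkp and Adm) were called, and Pfkfb4 was at 0.0021.

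Depth limits the low genes most: Adm, Car9 and Ankrd37 had as few as 16, 25 and 9 reads in a library.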
